A study of Homo sapiens with 27 samples.

Results

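The metallothionein genes are small genes clustered on chromosome 16 whose cysteine-rich products bind zinc, copper and other metals. They were followed here together with MTF1, the zinc-sensing transcription factor that drives them, and SLC30A1, which encodes the zinc exporter ZnT1 of the plasma membrane. The members were taken by symbol, through their Entrez IDs, from a table of read counts per gene: MT1E, MT1F, MT1G, MT1M, MT1X, MT2A, MTF1 and SLC30A1. All 8 members were found among the 24566 rows of the table. RNA was sequenced from 27 libraries in 9 groups of 3 biological replicates, all collected at 48 h. MDA-MB-231, an established human breast adenocarcinoma line, was left untreated or received Compound Kushen Injection (CKI, an extract of medicinal plants) at 1.0 mg/ml, 5-fluorouracil (5-FU, an inhibitor of thymidylate synthesis) at 10 ug/ml, or both agents. A431, an established human epidermoid carcinoma line, was left untreated or received a vehicle control, CKI at 1.0 mg/ml, doxorubicin (a DNA intercalator and topoisomerase II poison), or CKI with doxorubicin. The doxorubicin dose is not stated because the labels list more than one without assigning it to samples, and the labels do not describe the vehicle. Each line is a single cancer cell line, so within a line the groups differ in treatment and not in donor.

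Free zinc in the cytosol is buffered by metallothioneins. When zinc rises, MTF1 moves to DNA and binds short metal response elements (MREs) in the promoters of metallothionein genes and of SLC30A1, so that more zinc is bound and more is pumped out. Metallothionein promoters also respond to oxidants, heavy metals and glucocorticoids, and MT2A is the family member most widely expressed in human cells.

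Library totals ranged from 19871048 to 22809339 counts in MDA-MB-231 and from 17757206 to 21756536 in A431, so a floor of 3 counts stood at 0.132 to 0.169 CPM, the count scaled to library size. The labelled lines were matched by their markers: VIM, a mesenchymal filament gene, had group means of 719 to 1736 CPM in MDA-MB-231 and 2.88 to 35.7 CPM in A431, whereas CDH1, the epithelial cadherin, had 0.353 to 1.8 CPM and 376 to 946 CPM. Untreated MDA-MB-231 replicate 1 stood apart. Its counts differed from those of replicates 2 and 3 by a chi-square of 75 and 86.6 per degree of freedom. Pairs of A431 vehicle libraries came next, at 10.4 to 29.9, and the remaining pairs of replicates had 1.88 to 5.71. Every pair differed by more than sampling noise. In untreated MDA-MB-231 replicate 1, MT1E was 0.95 and MT2A 0.24 higher on the log2 scale than the mean of the other untreated replicates, and SLC30A1 was 0.42 higher. The members' changes with CKI and with 5-FU alone in that line, both tests of a difference in the effect of CKI that use them, and the comparison of untreated lines are therefore also given without it.

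All coordinates are of GRCh37, the build of the deposited counts (hg19). On chromosome 16, MT2A (Entrez 4502) lies at chr16:56642496-56643409, MT1E (4493) at chr16:56659387-56661024, MT1M (4499) at chr16:56666571-56667893, MT1F (4494) at chr16:56691643-56694610 and MT1X (4501) at chr16:56716382-56718108, all on the plus strand. MT1G (4495) lies among them at chr16:56700642-56701977 on the minus strand. MTF1 (4520) at chr1:38275246-38325264 and SLC30A1 (7779) at chr1:211744910-211752503 are both on the minus strand of chromosome 1. Metallothionein transcripts are similar in sequence, and 75-base windows were used to count stretches that other family members also hold. MT2A and MT1F shared 0 of their windows with the 19 other metallothionein genes and pseudogenes, MT1E and MT1X shared 1.42% and 1.44%, and MT1G shared 5.72%. Counts of MT1G are therefore the least certain among the 6 metallothionein members, and an exon of MT1X also overlaps an unnamed gene on the same strand.

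The promoters are shown because MTF1 acts through metal response elements and the members differ in how many of them they carry. Sequences came from RefSeq (table built on GRCh38.p14) and were found as exact, unique matches in GRCh37, and 4 of the 8 members had an entry. Each runs 5' to 3' on the strand of its gene over the 250 bases before the start site, and capitals mark the core of the metal response element, TGCACNC or TGCGCNC, on either strand. They lie at chr16:56642246-56642495 (MT2A), chr16:56716132-56716381 (MT1X), chr1:211752504-211752753 (SLC30A1) and chr1:38325265-38325514 (MTF1).
MT2A: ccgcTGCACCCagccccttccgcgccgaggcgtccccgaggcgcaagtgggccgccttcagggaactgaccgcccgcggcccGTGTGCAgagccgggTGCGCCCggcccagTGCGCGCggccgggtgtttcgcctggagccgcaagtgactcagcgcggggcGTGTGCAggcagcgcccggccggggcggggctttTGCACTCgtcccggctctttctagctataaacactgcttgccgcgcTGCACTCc
MT1X: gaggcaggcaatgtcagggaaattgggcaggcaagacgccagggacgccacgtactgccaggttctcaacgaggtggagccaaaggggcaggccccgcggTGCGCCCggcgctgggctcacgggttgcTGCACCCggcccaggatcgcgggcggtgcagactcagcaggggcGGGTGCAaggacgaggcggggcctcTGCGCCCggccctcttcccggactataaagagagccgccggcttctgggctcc
SLC30A1: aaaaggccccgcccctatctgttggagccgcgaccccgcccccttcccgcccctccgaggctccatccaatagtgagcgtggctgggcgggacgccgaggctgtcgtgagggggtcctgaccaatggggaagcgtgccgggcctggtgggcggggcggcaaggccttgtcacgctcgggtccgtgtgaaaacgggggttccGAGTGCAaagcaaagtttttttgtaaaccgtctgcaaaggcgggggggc
MTF1: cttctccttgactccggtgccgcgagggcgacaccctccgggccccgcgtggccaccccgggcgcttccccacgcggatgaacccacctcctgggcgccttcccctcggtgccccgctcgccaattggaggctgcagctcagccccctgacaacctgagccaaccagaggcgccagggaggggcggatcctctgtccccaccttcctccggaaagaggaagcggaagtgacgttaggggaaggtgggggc
MT2A held 7 MRE cores, 5 on its own strand and 2 on the other, from base -246 to base -2. MT1X held 4, SLC30A1 held 1 at bases -49 to -43, and no match was found in the MTF1 window. Of 35116 promoters of the same length, 24.8% held at least 1 such core, 0.37% at least 4 and 0.12% at least 5. The core of the antioxidant response element, searched on both strands as TGAC, any 3 bases and GC, was present at 1 place each in MT2A, MT1X and SLC30A1, did not overlap any MRE core, and was found in 10.9% of all promoters. A TATAAA box stood at base -29 in MT2A and at base -30 in MT1X and was found in 6.8% of all promoters. These are matches of letters and not measured binding sites.

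Of the 8 members, 6 passed the filter on low counts in each line. MT1G had 0 to 3 counts and MT1M 0 to 3 counts in any library, at or under the floor of 3 counts, so neither was tested and no fold is given. Their expression was not detectable at this depth. MT1F was low in MDA-MB-231, with 18 to 61 counts per library, and its changes there carry wide intervals.

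MT2A dominated the family. To compare genes, levels were expressed per kilobase of exon, as CPM divided by exon length (RPKM). By this measure untreated MDA-MB-231 had 1248 ± 137 RPKM of MT2A (mean ± SD, n = 3), 202 ± 83.8 RPKM of MT1E, 27.6 ± 1.97 RPKM of MT1X and 1.21 ± 0.504 RPKM of MT1F. Untreated A431 had the same order, with 1504 ± 42.5 RPKM of MT2A, 464 ± 24.1 of MT1E, 46.5 ± 1.74 of MT1X and 6.48 ± 0.516 of MT1F. MT2A ranked 11 of 24440 genes with a known length in untreated MDA-MB-231 and 8 in untreated A431. MTF1 and SLC30A1 were far lower per length than MT2A, at 2.34 and 3.13 RPKM for MTF1 and 8.41 and 5.66 RPKM for SLC30A1 in MDA-MB-231 and A431.

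**Figure D1:**
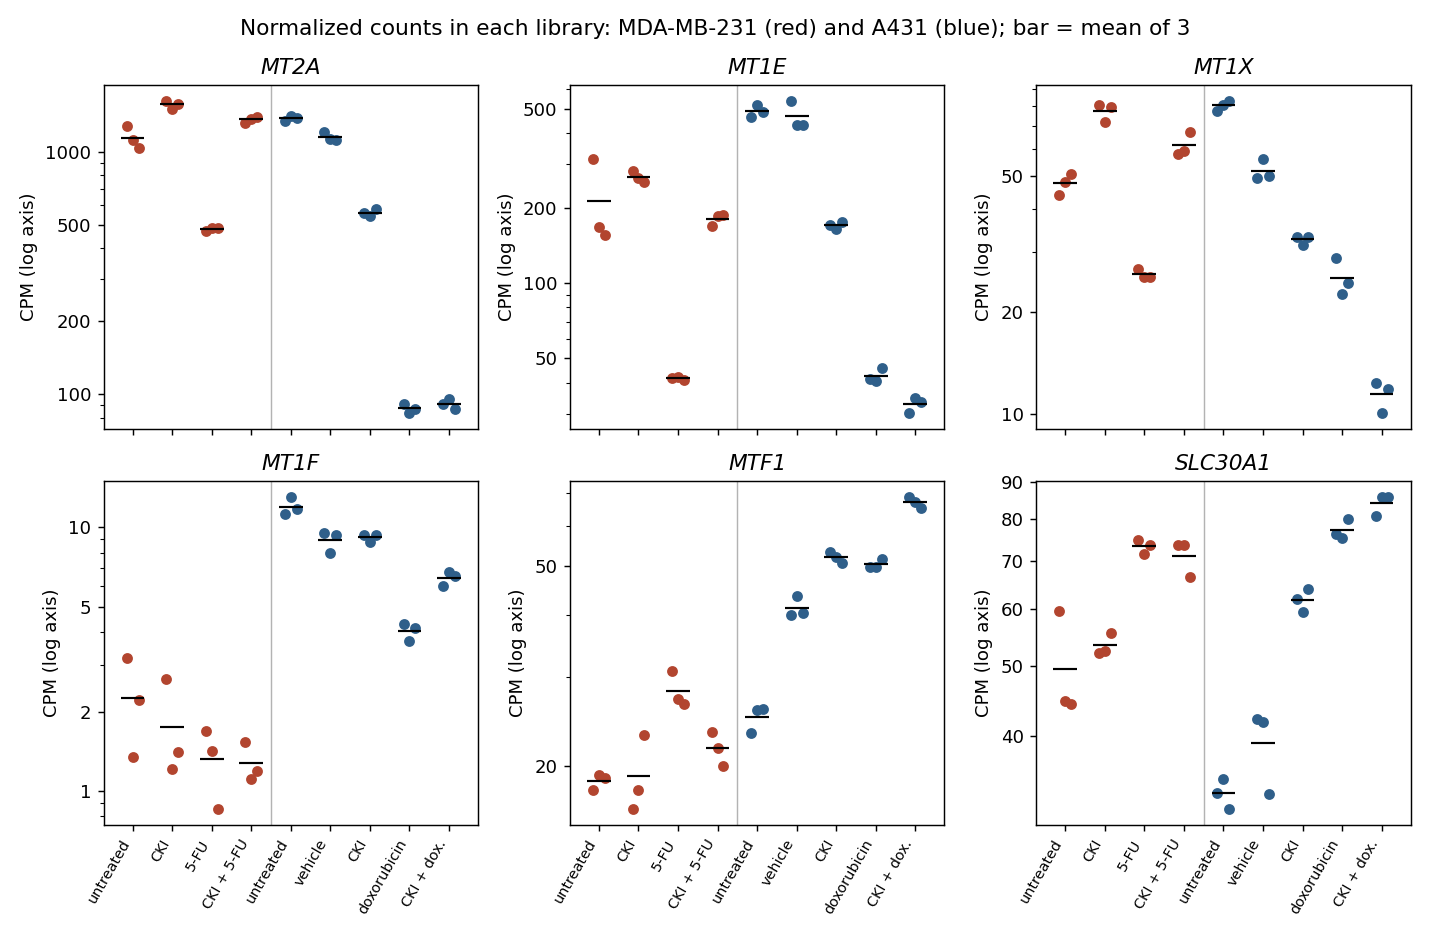
Normalized level (CPM, log axis) of 6 genes in each of the 27 libraries, by group, with MDA-MB-231 in red, A431 in blue and a bar at each mean of 3. MT2A, MT1E and MT1X are low under 5-FU and under doxorubicin, whereas MTF1 and SLC30A1 are high there.

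Across all 9 groups, MT2A levels fell into a high, a middle and a low range. The highest mean was that of MDA-MB-231 with CKI (1567 ± 61.9 CPM), followed by untreated A431 (1375 ± 38.8 CPM) and MDA-MB-231 with CKI+5-FU (1357 ± 39.5 CPM), which overlapped. A431 with vehicle (1152 ± 49 CPM) and untreated MDA-MB-231 (1141 ± 125 CPM) also overlapped. A431 with CKI (560.3 ± 17.1 CPM) and MDA-MB-231 with 5-FU (481 ± 7.38 CPM) formed the middle range. The low range held A431 with doxorubicin (87.4 ± 3.84 CPM) and with CKI+doxorubicin (91.5 ± 4.27 CPM), whose libraries overlapped each other.

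MT1E followed a similar order with the lines further apart. Its highest means were those of untreated A431 (488 ± 25.3 CPM) and A431 with vehicle (466 ± 61.8 CPM), which overlapped and stood above the 266 ± 13.3 CPM of MDA-MB-231 with CKI. Untreated MDA-MB-231 (213 ± 88.1 CPM), MDA-MB-231 with CKI+5-FU (181 ± 10.5 CPM) and A431 with CKI (171 ± 5.46 CPM) followed, each overlapping its neighbour. At the low end, A431 with doxorubicin (42.7 ± 2.81 CPM) and MDA-MB-231 with 5-FU (41.6 ± 0.545 CPM) overlapped, and only A431 with CKI+doxorubicin was lower (32.7 ± 2.26 CPM).

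MT1X ranged from 80.4 ± 3 CPM in untreated A431 to 11.4 ± 1.19 CPM in A431 with CKI+doxorubicin, whose libraries overlapped no other group. MT1F was split by line: its 5 A431 groups had means of 4.05 to 12 CPM and its 4 MDA-MB-231 groups means of 1.28 to 2.25 CPM, and no library of either line reached into the range of the other. The MDA-MB-231 groups overlapped each other for MT1F.

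The summed level of the 6 metallothionein members was 1479.7 ± 217 RPKM in untreated MDA-MB-231, 2013 ± 78 with CKI, 582 ± 7.37 with 5-FU and 1694 ± 54.9 with CKI+5-FU. In A431 it was 2021 ± 67.6 RPKM untreated, 1738 ± 111 with vehicle, 799 ± 24.6 with CKI, 153 ± 7 with doxorubicin and 141 ± 4.93 with CKI+doxorubicin. As a share of all counts, the family took 0.134% in untreated MDA-MB-231 and 0.176% in untreated A431, and 0.0176% in A431 with doxorubicin. The make-up differed between lines: MT2A was 6.63 ± 1.69 times MT1E per length in untreated MDA-MB-231 and 3.24 ± 0.0814 times in untreated A431, and it reached 13.3 ± 0.3 times under 5-FU. With doxorubicin, the ratio of MT2A to MT1X per length was 6.61 ± 0.52, against 32.3 ± 0.794 in untreated A431. These sums and ratios are given as descriptions, without a test. Counting length by the longest transcript instead of all exons raised MT1E to 286 RPKM in untreated MDA-MB-231 and 654 RPKM in untreated A431, with MT2A still highest.

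**Figure D2:**
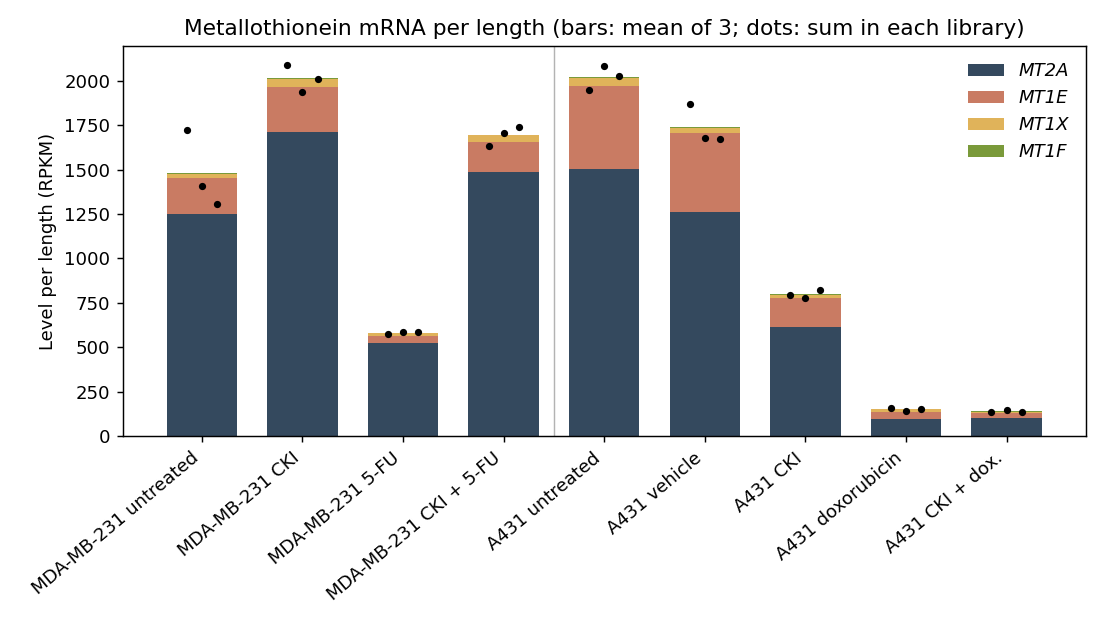
Summed metallothionein level per length (RPKM) in each group, as stacked bars of group means for MT2A, MT1E, MT1X and MT1F, with a dot for the sum in each of 3 libraries. MT2A makes up most of every bar, and the bars of A431 with doxorubicin and with CKI+doxorubicin stand at 153 and 141 RPKM.

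CKI raised MT2A and MT1X modestly in MDA-MB-231. The question was what CKI alone does to the line. MT2A had 1278, 1113 and 1032 CPM in the untreated libraries and 1624, 1501 and 1575 CPM with CKI. Every CKI library was above every untreated library, and the log2 fold change was 0.46 (SE 0.071, adjusted p = 0.00037, edgeR quasi-likelihood test with Benjamini-Hochberg adjustment over all genes, as for every adjusted p here). MT1X went from 44, 48.1 and 50.8 CPM to 80.8, 72 and 79.7 CPM, also without overlap, a log2 fold change of 0.70 (SE 0.08, adjusted p = 4.2e-05). Here and below, the share of all genes without such overlap is not given, so a lack of overlap is a description only. In bulk RNA, a change in the number of cells that express a gene and a change in RNA per cell cannot be told apart.

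A gene is said to change where its adjusted p was under 0.05, and to be differentially expressed (DE) where its log2 fold change also passed 1 in size. By these rules 2 of the 6 tested members changed with CKI in MDA-MB-231, against 36.2% of all 13999 genes, and 0 were DE, against 5.96%. DESeq2 gave the same count of 0, and the 2 were also those with an unadjusted p under 0.05. MT1E had 315, 168 and 156 CPM untreated and 279.9, 264 and 254 CPM with CKI, so replicate 1 of the untreated group lay above all CKI libraries and the others below them. Its log2 fold change was 0.32 (95% interval -0.11 to 0.75, adjusted p = 0.22), and without that library 0.71 (adjusted p = 2.9e-11). MTF1, SLC30A1 and MT1F had log2 fold changes of 0.04, 0.11 and -0.35 that did not pass. For SLC30A1 the value without untreated replicate 1 was 0.26 (adjusted p = 0.00051), and MT2A, MT1X, MTF1 and MT1F were then at 0.55, 0.65, 0.01 and -0.02.

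5-FU lowered MT1E, MT2A and MT1X in MDA-MB-231. MT1E fell to 41.7, 42.1 and 41.1 CPM, under every untreated library, a log2 fold change of -2.34 (SE 0.21, adjusted p = 2e-06) or 5.06-fold. MT2A fell to 473, 486 and 485 CPM, a log2 fold change of -1.23 (SE 0.072, adjusted p = 7.3e-08). The 3 replicates with 5-FU lay close together for both genes.

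MT1X fell from its untreated range to 26.7, 25.3 and 25.2 CPM, a log2 fold change of -0.88 (adjusted p = 2.9e-06). MTF1 and SLC30A1 moved the other way: MTF1 had 17.9, 19.2 and 18.9 CPM untreated and 30.9, 27.2 and 26.6 CPM with 5-FU (log2 fold change 0.61, adjusted p = 0.00068). SLC30A1 had 59.7, 44.7 and 44.3 CPM untreated and 74.7, 71.6 and 73.5 CPM with 5-FU (0.58, adjusted p = 0.00035). No 5-FU library overlapped the untreated libraries for MT2A, MT1E, MT1X, MTF1 or SLC30A1. The share of all genes without such overlap is not given, so this is a description only. In all, 5 of the 6 tested members changed, against 57.1% of all genes, and MT1E and MT2A, 2 of 6, were DE, against 13.3%. MT1F had a log2 fold change of -0.74 (adjusted p = 0.11). Without untreated replicate 1, the log2 fold changes were -1.95 for MT1E, -1.15 for MT2A, -0.93 for MT1X, 0.58 for MTF1, 0.73 for SLC30A1 and -0.40 for MT1F.

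With CKI added to 5-FU, MT2A, MT1E and MT1X were back near or above their untreated levels. MT2A had 1315, 1364 and 1393 CPM in the combination, all above the 5-FU libraries, a log2 fold change against 5-FU of 1.49 (SE 0.073, adjusted p = 3.1e-08). MT1E had 169, 186 and 188 CPM and rose by 2.12 against 5-FU (SE 0.21, adjusted p = 6.9e-06). These libraries lay above untreated replicates 2 and 3 (168 and 156 CPM) and below untreated replicate 1 (315 CPM). MT1X had 58, 59 and 67.3 CPM and rose by 1.26 (SE 0.083, adjusted p = 3.2e-07). Compared with untreated cells, MT2A and MT1X in the combination were higher by 0.26 (adjusted p = 0.0088) and 0.38 (adjusted p = 0.0021). MT1E had a log2 fold change of -0.22 (adjusted p = 0.37), with its untreated mean raised by replicate 1. No value without that library is given for this comparison.

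These 3 genes were DE among the 6 tested, against 9.77% of all genes, and 4 of 6 changed, against 50.4%. The other change was in MTF1, which fell by 0.38 against 5-FU (adjusted p = 0.014), with 23.3, 21.7 and 20 CPM in the combination. SLC30A1 stayed at 73.5, 73.5 and 66.4 CPM, a difference of -0.04 (95% interval -0.26 to 0.17). Set against CKI alone instead, the combination had 0 of 6 members DE by edgeR or DESeq2, against 3.81% of all genes, and 4 changed, with an unadjusted p under 0.05 in the same 4, against 42.1%. MT1E, MT1X and MT2A were lower by 0.55, 0.33 and 0.20 (log2) and SLC30A1 was higher by 0.42.

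The interaction term sets the change on adding CKI to 5-FU against the change with CKI alone. It was 1.79 for MT1E (SE 0.28, adjusted p = 0.00065) and 1.03 for MT2A (SE 0.1, adjusted p = 2.9e-05), so both rose more with CKI in the presence of 5-FU than in its absence. MT1X had an interaction of 0.55 (adjusted p = 0.0035). Of the 6 tested members 2 were DE by this term, against 6.84% of all genes, and 3 passed on the adjusted p, against 31.4%. The value for MT2A was close to the threshold: without untreated replicate 1 it was 0.95, it also fell just short without CKI replicate 2, and with scaling by library size alone it was 0.98. For MT1E it was 1.41 and for MT1X 0.61 without untreated replicate 1, and MTF1 (-0.39, adjusted p = 0.022) and SLC30A1 (-0.31, adjusted p = 0.0017) passed on the adjusted p in that fit, while MT1F was at -0.04.

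**Figure D3:**
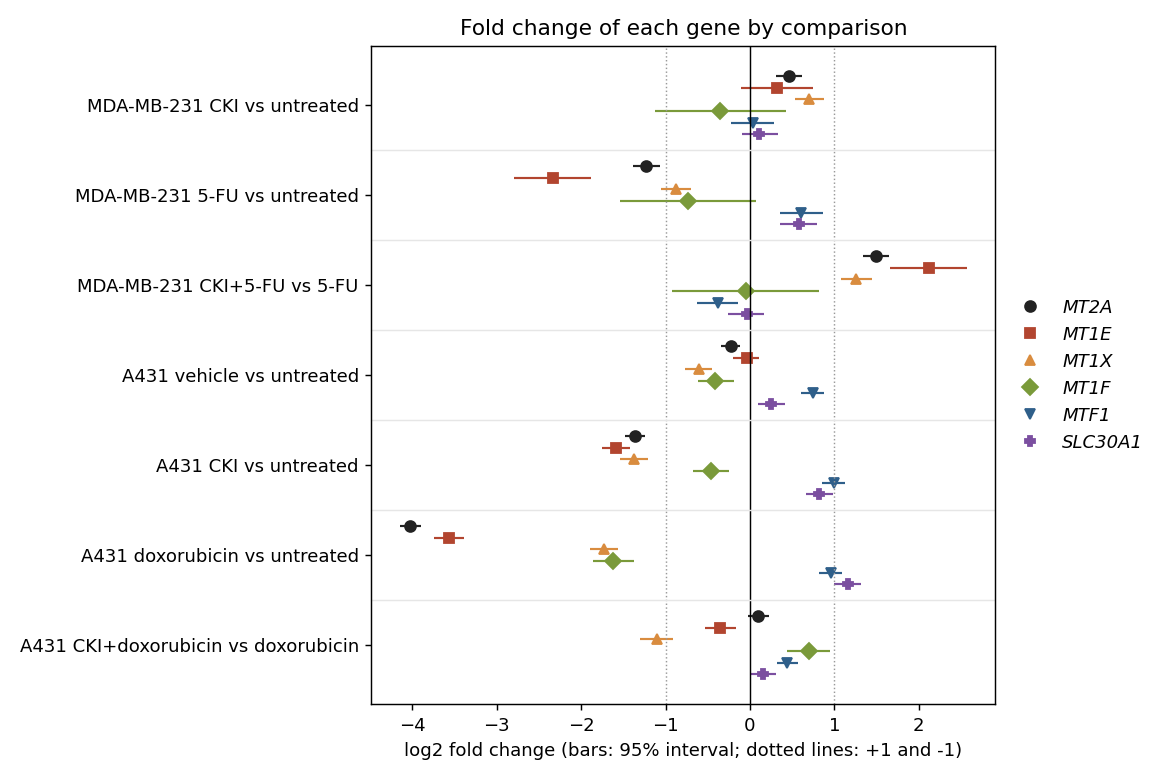
Fitted log2 fold change (points) with its 95% interval (bars) for 6 genes in 7 comparisons, with dotted lines at -1 and 1. MT2A, MT1E and MT1X lie left of 0 with 5-FU, with CKI in A431 and with doxorubicin, and right of 0 when CKI was added to 5-FU, whereas MTF1 and SLC30A1 lie right of 0 with 5-FU, with CKI in A431 and with doxorubicin.

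In A431 the vehicle control already differed from untreated cells. MTF1 had 23.2, 25.8 and 26 CPM untreated and 40, 43.6 and 40.4 CPM with vehicle, a log2 fold change of 0.75 (SE 0.066, adjusted p = 1.6e-08). MT1X had 77.2, 80.9 and 83.1 CPM untreated and 49.4, 55.9 and 49.9 CPM with vehicle (-0.61, adjusted p = 3e-06). Neither gene overlapped between the groups, which is a description only, as the share of all genes without such overlap is not given.

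With vehicle, 5 of the 6 tested members changed, against 42.5% of all genes, and 0 were DE by edgeR or DESeq2, against 2.54%. The 5 were also those with an unadjusted p under 0.05. MT1F and MT2A fell by 0.41 and 0.23 and SLC30A1 rose by 0.25, while MT1E had 430.0 to 538 CPM with vehicle and 464, 515 and 485 CPM untreated (-0.04, 95% interval -0.20 to 0.11). The members' changes with CKI alone in A431 are therefore given against both controls.

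CKI lowered MT2A, MT1E and MT1X in A431. MT2A went from 1333, 1409 and 1382 CPM untreated and 1208, 1126 and 1122 CPM with vehicle to 557, 545 and 579 CPM with CKI. Every CKI library was below every control library, with log2 fold changes of -1.36 (SE 0.055, adjusted p = 6.7e-16) against untreated and -1.13 (SE 0.054, adjusted p = 2.1e-14) against vehicle. MT1E fell to 171, 165 and 176 CPM, by 1.59 against untreated (SE 0.078, adjusted p = 2.5e-14) and by 1.54 against vehicle (adjusted p = 5.1e-14). The share of all genes that overlap neither control is not given.

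MT1X fell to 33.2, 31.4 and 33.1 CPM, below all libraries of both controls, with a log2 fold change of -1.37 (adjusted p = 5.4e-13) against untreated and -0.76 (adjusted p = 2.1e-08) against vehicle, the second value short of the fold threshold. MT1F, at 9.37, 8.84 and 9.32 CPM, fell against untreated (-0.46, adjusted p = 4e-04) but lay within the range of the vehicle libraries (-0.05, 95% interval -0.27 to 0.17). MTF1 and SLC30A1 rose: MTF1 to 53.3, 52.2 and 50.7 CPM and SLC30A1 from 33.4, 34.9 and 31.7 to 62, 59.5 and 63.9 CPM. Their log2 fold changes against untreated were 0.99 (SE 0.065, adjusted p = 4.5e-12) and 0.82 (SE 0.077, adjusted p = 2e-09), and against vehicle 0.24 (adjusted p = 0.0016) and 0.57 (adjusted p = 6.3e-07). All 6 tested members changed against untreated, compared with 67% of all genes, and 3 were DE, compared with 22.4%. Against vehicle 5 changed, compared with 65% of all genes, and 2 were DE, compared with 19.5%. With offsets for GC content and length, MT2A against vehicle was at -0.95 and 1 member was DE.

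Among the agents given alone, the changes of MT2A and MT1E were largest with doxorubicin in A431. No agent except CKI was given to both lines, and the doxorubicin dose is not stated. Agent, dose and line therefore cannot be told apart in this ranking. MT2A had 91.3, 83.7 and 87.2 CPM with doxorubicin against 1333 to 1409 CPM untreated, a log2 fold change of -4.03 (SE 0.061, adjusted p = 7e-23) or 16.3-fold. By unadjusted p it ranked 2 of the 15881 genes tested, and its rank by level per length went from 8 to 376. MT1E had 41.4, 40.7 and 45.9 CPM, a log2 fold change of -3.57 (SE 0.086, adjusted p = 5.9e-20) or 11.9-fold. Both genes lay far outside the range of untreated and vehicle libraries.

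MT1X fell to 28.7, 22.6 and 24.2 CPM (-1.73, SE 0.082, adjusted p = 9.1e-15). MT1F fell from 11.2, 13.1 and 11.7 to 4.3, 3.7 and 4.15 CPM (-1.62, SE 0.12, adjusted p = 1.2e-11). SLC30A1 rose to 76.1, 75.2 and 80 CPM (1.16, SE 0.076, adjusted p = 3.3e-12) and MTF1 to 49.8, 49.8 and 51.6 CPM (0.96, SE 0.065, adjusted p = 5.6e-12). None of these genes overlapped its untreated libraries, and the share of all genes without such overlap is not given. All 6 tested members changed, against 80.6% of all genes, and 5 were DE, against 37.3%. With scaling by library size alone, the median of all genes shifted by 0.34 (log2) in this comparison, and MT2A was at -3.68. With vehicle in place of untreated cells, SLC30A1 was at 0.90, MTF1 at 0.21 and MT1X at -1.11, and 4 members were DE.

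Adding CKI to doxorubicin left MT2A at its low level. The combination had 91.3, 95.8 and 87.3 CPM, overlapping the doxorubicin libraries, and the log2 fold change was 0.10 (95% interval -0.02 to 0.22, adjusted p = 0.14). MT1X fell further, to 12.4, 10.1 and 11.9 CPM, below all doxorubicin libraries (-1.10, SE 0.094, adjusted p = 7.9e-10). MT1E fell to 30.2, 34.6 and 33.3 CPM (-0.35, adjusted p = 0.0012).

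MT1F moved the other way, to 6, 6.76 and 6.54 CPM (0.70, adjusted p = 3.2e-05), above all doxorubicin libraries. MTF1 rose to 68.8, 67 and 65.3 CPM (0.44, adjusted p = 1e-06), and SLC30A1, at 80.8, 85.9 and 85.9 CPM, had a log2 fold change of 0.16 that did not pass (adjusted p = 0.056). Of the 6 tested members 4 changed, against 63.6% of all genes, and MT1X alone was DE, 1 of 6 against 14.9%. The size of its change was close to the threshold: it fell just short of it without doxorubicin replicate 1, and was -0.96 with offsets for GC content and length.

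Compared with CKI alone, the combination lowered MT2A by 2.56 (SE 0.058, adjusted p = 5e-20), MT1E by 2.33 (adjusted p = 1.7e-16), MT1X by 1.46 (adjusted p = 3.4e-12) and MT1F by 0.46 (adjusted p = 6e-04). SLC30A1 and MTF1 rose by 0.50 and 0.41. All 6 changed, against 73.3% of all genes, and 3 were DE, against 25.7%. The interaction of CKI with doxorubicin was 1.46 for MT2A (SE 0.079, adjusted p = 7.7e-13), 1.24 for MT1E (SE 0.12, adjusted p = 5.3e-09) and 1.16 for MT1F (SE 0.16, adjusted p = 1.7e-06). CKI changed MT2A and MT1E by 0.10 and -0.35 with doxorubicin present and by -1.36 and -1.59 without it. By this term 5 of 6 members passed on the adjusted p, against 57.4% of all genes, and 3 were DE, against 19.5%. SLC30A1 (-0.66) and MTF1 (-0.54) were among those that passed, and MT1X (0.27, adjusted p = 0.069) was not. With vehicle in place of untreated cells the MT1F term was 0.75, and those of MTF1 and MT1X had the opposite sign, at 0.20 (adjusted p = 0.048) and -0.34 (adjusted p = 0.021).

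CKI moved MT2A and MT1X in opposite directions in the lines. The difference between its effect in A431 and that in MDA-MB-231, each against untreated cells, was tested directly. It was -2.07 for MT1X (SE 0.11, adjusted p = 2e-08), -1.90 for MT1E (SE 0.28, adjusted p = 0.00011) and -1.82 for MT2A (SE 0.12, adjusted p = 9.4e-08). MTF1 and SLC30A1 had differences of 0.96 (adjusted p = 0.00021) and 0.72 (adjusted p = 0.0015), higher in A431, and MT1F had -0.10 (95% interval -0.95 to 0.74). Of the 6 tested members 5 passed on the adjusted p, against 47% of all genes, and 3 were DE, against 18.5%. Without untreated MDA-MB-231 replicate 1 the differences were -2.02 for MT1X, -2.30 for MT1E, -1.91 for MT2A, 0.98 for MTF1, 0.55 for SLC30A1 and -0.45 for MT1F. With vehicle in place of untreated A431, MTF1 and SLC30A1 had differences of 0.21 (adjusted p = 0.3) and 0.46 (adjusted p = 0.051), which did not pass. The line and any difference in how the lines were grown or handled cannot be told apart.

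Untreated A431 had more MT1F, MT1E, MT1X and MT2A than untreated MDA-MB-231 and less SLC30A1. MT1F was higher by 2.48 (log2, SE 0.26, adjusted p = 1.1e-06) and MT1E by 1.24 (SE 0.2, adjusted p = 7.3e-05). MT1X, MTF1 and MT2A were higher by 0.80, 0.47 and 0.32 and SLC30A1 was lower by 0.52. All 6 passed on the adjusted p, against 78.6% of all genes, and 2 were DE, against 42.9%. Without untreated MDA-MB-231 replicate 1, MT1F, MT1E, MT1X, MTF1 and MT2A were higher by 2.82, 1.64, 0.75, 0.44 and 0.41 and SLC30A1 was at -0.37. With the replicate number as a block MT1E was higher by 0.89, short of the fold threshold. MT2A did not pass with that block (0.17, adjusted p = 0.17). With A431 vehicle in place of untreated A431, MT1X was higher by 0.19 and MTF1 by 1.22, while MT2A (0.08, adjusted p = 0.37) and SLC30A1 (-0.27, adjusted p = 0.062) did not pass.

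MTF1 and SLC30A1 were highest in A431 with CKI+doxorubicin, a group with very low MT2A. MTF1 had 67 ± 1.77 CPM there and its lowest mean in untreated MDA-MB-231 (18.7 ± 0.665 CPM). A431 with CKI (52.1 ± 1.33 CPM) and with doxorubicin (50.4 ± 1.08 CPM) overlapped for MTF1, and A431 with vehicle (41.3 ± 1.96 CPM) lay below them. SLC30A1 had 84.2 ± 2.92 CPM in A431 with CKI+doxorubicin and 77.1 ± 2.54 CPM with doxorubicin, without overlap, and was lowest in untreated A431 (33.3 ± 1.59 CPM). MDA-MB-231 with 5-FU (73.3 ± 1.56 CPM) and with CKI+5-FU (71.1 ± 4.13 CPM) overlapped for SLC30A1.

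Of the rest of the metallothionein family, 11 genes and pseudogenes were listed and 8 were in the table. MT1A was counted in MDA-MB-231, with group means of 5.62 to 8.42 CPM, and had 0 or 1 count in each A431 library, whereas MT1F, MT1E, MT1X and MT2A were higher in untreated A431. With 5-FU in MDA-MB-231, where MT1E, MT2A and MT1X fell, MT1A had a log2 fold change of 0.47 that barely passed (adjusted p = 0.049). Its libraries overlapped, at 4.81 to 8.3 CPM untreated and 7.66 to 9.63 CPM with 5-FU. No value of MT1A without untreated replicate 1 is given. MT1L, a pseudogene, had the opposite split, with 4.96 to 10.8 CPM in A431 and 0 or 1 count in each MDA-MB-231 library. It rose with CKI against vehicle in A431 (log2 fold change 1.03, adjusted p = 2.3e-07). It overlaps another annotated gene on the same strand.

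Oxidant-response genes, which share inducers with metallothioneins, rose with CKI in both lines. The list held HMOX1 (heme oxygenase), SLC7A11 (the cystine importer), TXNRD1 (thioredoxin reductase), GCLM (of glutathione synthesis) and 2 others. In MDA-MB-231 with CKI, 5 of 6 were DE and higher, against 3.76% of all genes, among them TXNRD1 (1.25, adjusted p = 2.6e-07) and GCLM (1.22, adjusted p = 2e-05), with a list median of 1.17 against -0.01 for all genes. In A431 with CKI, 4 of 6 were DE and higher, against 12% of all genes, led by HMOX1 (2.37, adjusted p = 6.4e-18), with a list median of 1.19 against 0.00. Against vehicle 3 of 6 were DE, all higher, compared with 19.5% of all genes in either direction, with a list median of 0.94, and SLC7A11 was at 0.85, short of the fold threshold. Under 5-FU 1 of 6 was DE (GCLM, 1.10), against 13.3% of all genes. Under doxorubicin 2 of 6 were DE, against 37.3%, HMOX1 being higher by 1.31 and SLC7A11 lower by 2.12. MT2A and MT1X rose beside these genes with CKI in MDA-MB-231 and fell beside their rise in A431.

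Of the zinc importers, 14 genes were listed. SLC39A4, the importer of dietary zinc, fell with the metallothioneins in A431, by 1.58 with CKI (adjusted p = 3.6e-13) and by 2.22 with doxorubicin (adjusted p = 1.1e-15), both against untreated cells, and it fell by 0.78 with CKI against vehicle (adjusted p = 8.7e-08). SLC39A8, which carries zinc and manganese, rose with doxorubicin (1.85, adjusted p = 4.7e-11), as did SLC39A2 (2.46, adjusted p = 1e-09). With doxorubicin 2 of the 12 tested importers were DE and higher, against 23% of all genes, and 1 was DE and lower, against 14.3%.

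The list labelled zinc exporters held 9 other genes of the SLC30 family, taken by family name and not by the metal that each carries. SLC30A9 fell with 5-FU (-1.18, adjusted p = 3.3e-07) and rose when CKI was added (1.02, adjusted p = 1.7e-06), as MT2A did. With doxorubicin SLC30A3 was DE and higher (2.28, adjusted p = 3.3e-09), as were 23% of all genes. SLC30A8 and SLC30A10 had at most 1 count in each untreated A431 library and 16 to 26 and 6 to 14 counts with doxorubicin. In A431 this pair passed the filter on low counts only through the groups with doxorubicin, where both were high. A call as higher with doxorubicin was thus built in, so no count of this list in A431 is set against all genes. No fold is given for the pair in A431. Among 8 copper-handling genes, ATP7B, a copper-exporting ATPase, fell with 5-FU in MDA-MB-231 (-1.43, adjusted p = 3e-06), rose when CKI was added (1.44, adjusted p = 4.8e-06) and rose with CKI in A431 (1.54, adjusted p = 3.6e-07, and 1.61 against vehicle). ATP7A, a related ATPase, rose with CKI in A431 (1.19, adjusted p = 5.7e-09, and 0.70 against vehicle). With CKI in A431, 2 of the 8 copper-handling genes were DE, against 22.4% of all genes, with a list median of 0.04. Against vehicle 1 of 8 was DE, against 19.5%, and under 5-FU 1 of 8, against 13.3%. These counts are near the shares of all genes.

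**Figure D4:**
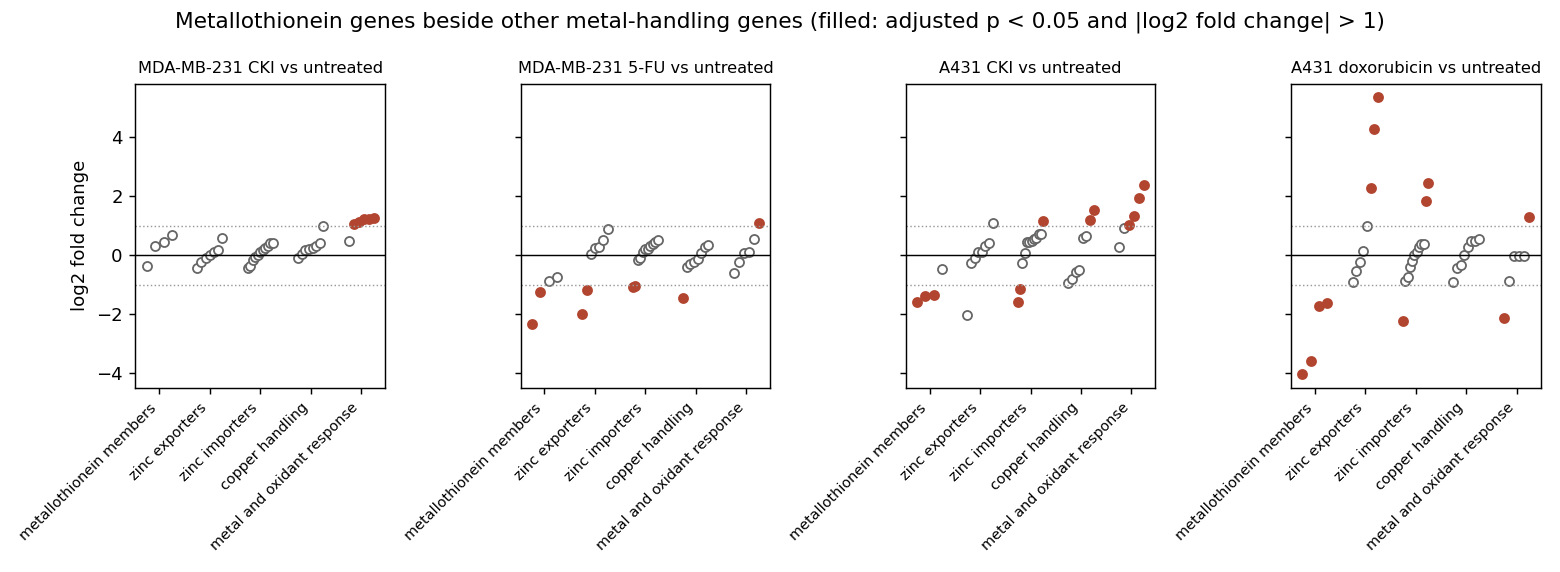
Log2 fold change of each tested gene of 5 lists in 4 comparisons, 1 point per gene, ordered by value within a list; filled points have an adjusted p under 0.05 and a size over 1 (dotted lines). The metal and oxidant response list lies above 0 with CKI, while the 4 tested metallothioneins are below 0 with CKI and with doxorubicin in A431. In the list labelled zinc exporters (SLC30 family), the 2 highest points under doxorubicin are SLC30A8 and SLC30A10. Their height depends on how near-zero counts were handled.

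Glucocorticoids also induce metallothioneins, and 8 genes that respond to them were listed. DUSP1, a MAP kinase phosphatase, rose by 3.58 with vehicle in A431 (adjusted p = 2.8e-18) and by 3.90 with CKI against untreated cells (adjusted p = 1.5e-19), and SGK1, a serum- and glucocorticoid-regulated kinase, rose by 2.29 with vehicle (adjusted p = 6.1e-15). With vehicle, 2 of the 7 tested genes were DE and higher, against 1.05% of all genes, in the comparison in which MT1X and MT2A fell. With CKI against untreated A431, 3 of 7 were DE and higher, against 12%. In CKI+doxorubicin against CKI, where MT2A also fell, DUSP1 (-1.99), PER1 (-1.44) and TSC22D3 (-1.37) were DE and lower. FKBP5 was DE and higher there, and 25.7% of all genes were DE in either direction. By the CKI by doxorubicin interaction 4 of 7 were DE, with negative terms, against 19.5%. With CKI against vehicle, 1 of 7 was DE and higher (KLF9) and 2 were DE and lower, FKBP5 and SGK1 (-1.29, adjusted p = 5.6e-12), compared with 19.5% of all genes in either direction, and DUSP1 was at 0.32 (adjusted p = 0.0011). Under 5-FU in MDA-MB-231 1 of 7 was DE and higher and 2 were DE and lower, against 6.01% and 7.31% of all genes.

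Over the 7 treated groups, each set against the untreated cells of its line, the gene most like MT2A in its fitted log2 fold changes was CFD, complement factor D, among 13373 genes tested in both lines. The root mean square difference was 0.44, and CFD had log2 fold changes of -4.36 with doxorubicin and -1.88 with CKI in A431. It was less like MT2A in MDA-MB-231 with 5-FU, at -0.40 against -1.23 for MT2A. With CKI+5-FU it was at -0.04 against 0.26. MT1E came next (0.50), before CRIP2 (0.54) and RAC3 (0.62), while MT1X ranked 75 (0.99). For SLC30A1 the nearest genes were PDE4DIP and LOC653513, whose values were identical as printed, and SPAG1, all at 0.11, and MTF1 ranked 78 (0.25). The treated groups of a line share the same untreated libraries, as do the comparisons above wherever they name the same control, so these values are descriptions without a test.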

How the data were processed

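The authors deposited raw counts of reads per gene, 1 column per library, keyed by Entrez ID. The submitters' processing notes list Trim Galore 0.3.7, STAR 2.5.3a, edgeR and hg19. The counting tool, the annotation and the use of strand are not given in the sources used here, and the library kit named in the labels does not mark strand. No values were normalized before deposit. Of 24566 rows, 24422 received a gene symbol from RefSeq (GRCh38.p14 table, used for names), and 1597 had no count in any library. Groups and replicate numbers came from the sample labels, which state biological replicates.

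Counts were analysed with edgeR 4.0.16 in R 4.3.3 (TMM scaling, filterByExpr, quasi-likelihood test), over all 12 MDA-MB-231 libraries (13999 genes), all 15 A431 libraries (15881 genes) and 12 libraries, untreated or with CKI, of either line (14848 genes). P-values were adjusted over all genes tested by the Benjamini-Hochberg method. A gene was DE at an adjusted p under 0.05 and a log2 fold change over 1 in size. SE was the log2 fold change divided by the square root of F, and intervals are 95% intervals. The scripts were tested on simulated data. CPM used TMM factors over all 27 libraries, and RPKM the exon length in GENCODE v44lift37. Floors and counts carry counting error only. The members, gene lists and comparisons were chosen with earlier results of these data known. All members are named. From each other list up to 4 DE genes were picked by smallest adjusted p, but not all of these are named, and some other DE genes are. Same-numbered replicates did not deviate together, so the numbers were not used as pairs. Alternatives were DESeq2 1.42.0, RLE factors, library size alone, no filter, at least 10 counts in every library, the compared groups alone, the adjusted p alone, a replicate block, GC and length offsets (alone and with the block), vehicle in place of untreated, each library left out, and longest transcript for length.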

Additional observations from a re-analysis of the deposited data

Results flagged for a closer look

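A total of 8 differences between the effects of CKI in different settings were DE for metallothionein genes, each by a test of the difference itself (an interaction term in edgeR). In MDA-MB-231 the effect of CKI with 5-FU minus that without it was 1.79 for MT1E and 1.03 for MT2A on the log2 scale, a term by which 6.84% of all genes were DE. In A431 the effect of CKI with doxorubicin minus that without it was 1.24 for MT1E, 1.16 for MT1F and 1.46 for MT2A, against 19.5% of all genes DE. The effect of CKI in A431 minus that in MDA-MB-231 was -1.90 for MT1E, -2.07 for MT1X and -1.82 for MT2A, against 18.5% of all genes DE. MT1E was high in untreated MDA-MB-231 replicate 1, and without that library its first value was 1.41 and its last -2.30. For MT1F the value came from 73 to 237 counts per A431 library.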

How the results depend on the processing

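Counts of DE members moved by more than 1.5 times only under the settings that follow, and not with DESeq2, RLE factors, either filter or the compared groups alone. With the adjusted p alone, the counts became 2 for CKI and 5 for 5-FU in MDA-MB-231, 4 for CKI+5-FU against CKI, 5 for vehicle, 6 for CKI against untreated, 5 for CKI against vehicle, 4 for CKI+doxorubicin against doxorubicin, 6 for CKI+doxorubicin against CKI, 5 for the CKI by doxorubicin interaction, 5 for the line by CKI interaction and 6 for untreated A431 against untreated MDA-MB-231, since the fold threshold was dropped. With library size alone, the CKI by 5-FU interaction kept 1 DE member, MT2A being at 0.98. With GC and length offsets, CKI against vehicle kept 1 (MT2A at -0.95) and CKI+doxorubicin against doxorubicin 0 (MT1X at -0.96), and the values were the same when a replicate block was added. Replicate numbers did not pair the samples: same-numbered correlations ran from -0.21 to 0.1 and no comparison had every sample closest to its own number. The replicate block left 1 DE member between the untreated lines (MT1E at 0.89), or 1 with the offsets added (0.81), and moved no other count over 1.5 times. Leaving out each library in turn gave 1 to 2 DE members for the CKI by 5-FU interaction (1 without untreated replicate 1 or CKI replicate 2) and 0 to 1 for CKI+doxorubicin against doxorubicin (0 without doxorubicin replicate 1). The cause of these shifts was not tested.

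Among the other settings, direction changed for these values, none of them DE. MT1F for CKI against vehicle became 0.06 with library size alone and 0.00 with both kinds of offset fit, MT1F for CKI+5-FU against 5-FU became 0.02 with block and offsets and 0.01 with offsets, and MT1E for vehicle against untreated became 0.06 in both offset fits. MT1F in the line by CKI interaction became 0.35 and 0.32 in the offset fits and 0.30 with vehicle. With vehicle, the CKI by doxorubicin interaction was -0.34 for MT1X and 0.20 for MTF1. Leaving out each library in turn reversed 11 values, all of members that were not DE: MT1F ran from -0.28 to 0.16 for CKI+5-FU against 5-FU, from -0.04 to 0.72 in the CKI by 5-FU interaction and from -0.45 to 0.32 in the line by CKI interaction, SLC30A1 from -0.07 to 0.00 for CKI+5-FU against 5-FU, MTF1 from -0.11 to 0.13 for CKI in MDA-MB-231, and MT1E from -0.16 to 0.02 for vehicle.

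MTF1 passed the fold threshold under some settings, at 1.10 for CKI and 1.30 for doxorubicin in A431 with library size alone, and was at 0.24 and 0.21 with vehicle in place of untreated cells. With library size alone, the median of all genes shifted by 0.34 for doxorubicin, 0.21 for CKI+doxorubicin against CKI, 0.13 for 5-FU and 0.11 for CKI in A431. The 18 to 61 counts of MT1F per MDA-MB-231 library limit what could be seen there.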
